A study of Mus musculus with 6 samples.

Results

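The genes of cholesterol and fatty acid synthesis were followed in the mouse ovarian cancer line ID8 with and without the chemokine CCL6. A list of 33 genes was used, chosen by name as enzymes and regulators of these pathways. By their gene symbol 30 of the 33 had 1 probe set each among the 22206 probe sets of the array, 18 of them sterol genes and 12 fatty acid genes. Acat2, Srebf1 and Scd2 were not analysed on the arrays here. All 30 had a mean above the background level of 4.85 on the log2 scale, the 95th percentile of 1452 odorant, vomeronasal and taste receptor probe sets, against 56.5% of all probe sets.

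ID8 cells were kept without serum for 24 h in both groups. Cells then remained unstimulated or received 200 ng/mL recombinant CCL6 in serum-free DMEM for 6 h, and total RNA of 3 biological replicates per group was put on Clariom S mouse arrays. The study asked how CCL6, a chemokine made by macrophages of the omentum, acts on cancer cells that migrate toward it. One cell line was used, no allele or second agent is named for either group, and the labels and the methods differ on the serum content of the growth medium. Every value below is a log2 value, and a difference is CCL6 minus unstimulated.

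Cells build cholesterol from acetyl-CoA through mevalonate, isoprenoids, squalene and lanosterol. The transcription factor SREBP-2 drives most of these genes, while SREBP-1 acts more on fatty acid synthesis. SCAP carries both precursors from the endoplasmic reticulum to the Golgi for cleavage when sterols are low, and INSIG proteins hold SCAP back when sterols are high. NF-Y, which binds a CCAAT box, is a common partner of SREBPs on their target promoters.

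The promoters were read first for these elements. RefSeq windows of 250 bases before to 50 bases after the start of transcription (build GRCm38.p6) were found for 26 of the 33 genes, Srebf1 included. Fdps, Fdft1, Sqle, Stard4, Scd1, Scd2 and Fads1 had no window and were not searched. The sterol regulatory element core (TCACNCCAC, either strand) occurred in 1 of the 26, Hmgcs1, and in 1.44% of the 27025 genes with a window. An E-box that SREBPs can bind (TCACGTGA) occurred in 0 of the 26 and in 1.12% of all genes. The NF-Y box (CCAAT, either strand) was much more frequent, in 20 of the 26 (76.9%) against 41.1% of all genes. It was present in 14 of 16 sterol genes (87.5%) and 6 of 10 fatty acid genes (60%). At least 2 boxes stood in 1 window of 9 genes (34.6%), compared with 13.3% of all genes. These matches are descriptions of the letters in the windows, and binding was not measured. Counted by window, the NF-Y box was in 21 of the 34 windows of these genes (61.8%) against 37.4% of all windows. All genes with a window were not matched to the 26 for expression or base composition. Other forms of the sterol element were not searched.

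The 250 bases before the start of 3 genes are shown 5′ to 3′ on the gene's strand, with NF-Y boxes (ATTGG is CCAAT on the other strand) and the sterol element core in capitals. Hmgcs1, which encodes the HMG-CoA synthase of the cytosol, is shown as the gene with the sterol element core. Insig1 and Mvk were added after their values were seen, because they varied most over the 6 arrays.
Hmgcs1, chr13:119690101-119690350, plus strand: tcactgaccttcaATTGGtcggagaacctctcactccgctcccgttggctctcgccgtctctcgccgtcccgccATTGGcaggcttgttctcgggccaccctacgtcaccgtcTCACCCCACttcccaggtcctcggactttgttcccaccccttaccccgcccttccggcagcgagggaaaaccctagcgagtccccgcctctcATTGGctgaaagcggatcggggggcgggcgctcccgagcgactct
Insig1, chr5:28071162-28071411, plus strand: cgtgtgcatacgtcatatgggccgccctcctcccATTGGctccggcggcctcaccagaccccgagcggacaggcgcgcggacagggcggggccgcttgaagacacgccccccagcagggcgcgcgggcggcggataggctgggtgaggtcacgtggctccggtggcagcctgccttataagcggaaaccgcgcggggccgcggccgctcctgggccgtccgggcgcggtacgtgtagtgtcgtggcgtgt
Mvk, chr5:114444019-114444268, plus strand: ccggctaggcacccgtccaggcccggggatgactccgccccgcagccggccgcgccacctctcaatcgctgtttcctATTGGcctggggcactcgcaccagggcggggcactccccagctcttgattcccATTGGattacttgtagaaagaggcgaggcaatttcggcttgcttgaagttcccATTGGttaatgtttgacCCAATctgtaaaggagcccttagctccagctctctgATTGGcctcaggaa

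The core of the Hmgcs1 promoter began at -137, between NF-Y boxes at -176 and -45. Mvk held 5 boxes, the most of any of the 26 genes, at -173, -120, -67, -50 and -14. Of these, 4 lay on the other strand at equal steps of 53 bases. Insig1 held 1 box, at -216.

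**Figure D1:**
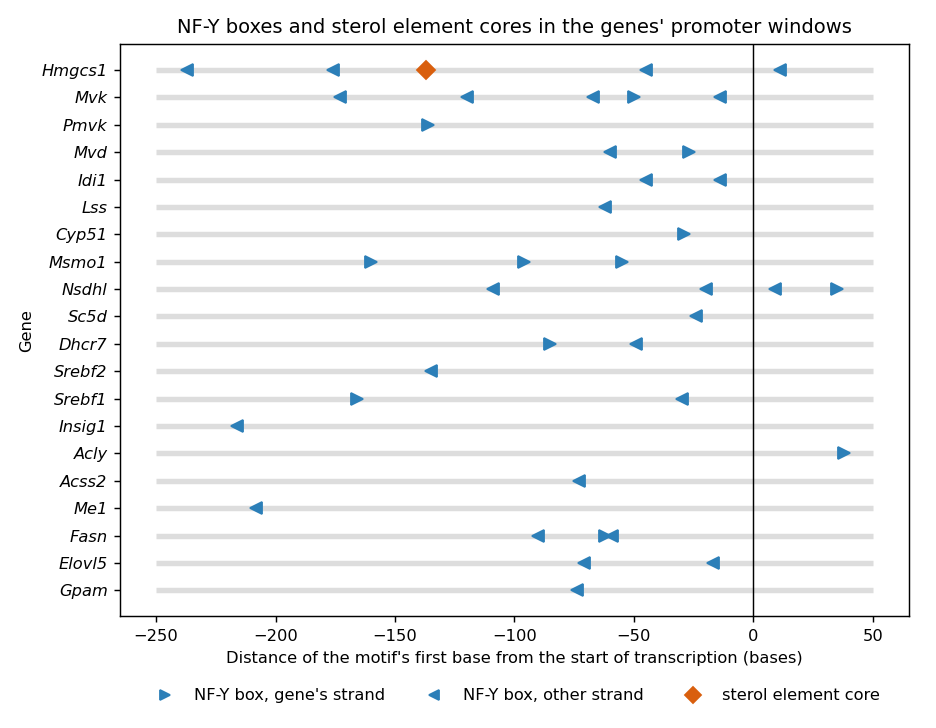
Positions of NF-Y boxes (triangles, pointing right on the gene's strand and left on the other strand) and of the sterol element core (diamond) in the promoter windows of the 20 genes with a match, with distance from the start of transcription in bases on the x axis. The 2 boxes of Srebf1 come from 2 different start sites. Mvk has 5 boxes, and of the 26 genes with a window Hmgcs1 alone has the sterol element core.

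The arrays did not fall into their treatment groups. The first principal component, computed without these genes, took 50.8% of the variance and put unstimulated replicates 1 and 2 and CCL6 replicate 3 at -34.1, -29.7 and -40.5, and the other 3 arrays between 23.4 and 46.0. A list of 11 proliferation genes followed the same division, at -0.83, -0.48 and -0.90 from its mean on the first 3 arrays and at 0.75, 0.43 and 1.03 on unstimulated replicate 3 and CCL6 replicates 1 and 2. Markers of the ID8 epithelium were above background for 7 of 7 genes. Krt7 passed through the CCL6 group alone, with a mean of 5.09 there and 4.78 in unstimulated cells. Of the macrophage, adipocyte and stromal or endothelial lists, 1 of 6, 1 of 5 and 1 of 5 measured genes were above background (Cd14, Lipe and Dcn). Dcn was high, with means of 15.58 (unstimulated) and 15.72 (CCL6). The highest epithelial marker, Krt19, had 15.45 and 15.26. In whole cultures fewer cells of a type and less RNA per cell cannot be told apart.

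CCL6 gave no detectable change in any of the 30 genes. With limma and Benjamini-Hochberg adjustment over all probe sets, 0 of 30 passed an adjusted p of 0.05, as did 0% of the array. At an unadjusted limma p under 0.05 the count was also 0 of 30, against 1.28% of all probe sets higher and 1.81% lower after CCL6. A Student's t-test likewise gave 0 of 30 without adjustment. The paper's methods name this test for grouped data in general and state none for the arrays. The 2 groups overlapped in all 30 genes, while 3.77% of all probe sets had every CCL6 array above every unstimulated array and 4.41% had the opposite order. A single gene could not reach 0.05 in an exact permutation test here, where 0.1 is the smallest two-sided p.

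Point estimates were small on both sides of zero, 19 above it and 11 below. Of probe sets above background, 51.4% had an estimate above zero. The median difference was 0.06 for the 18 sterol genes and 0.09 for the 12 fatty acid genes, compared with 0.01 for all probe sets above background. Single genes ran from -0.61 (Mvk) to 0.58 (Insig1). For 28 of 30 genes the 95% interval of the limma difference lay within a 2-fold change in either direction, which was true for 59.3% of probe sets above background. Mvk and Insig1 were the exceptions. These intervals are for each gene by itself, and the probe sets above background were not matched to the genes for signal level.

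**Figure D2:**
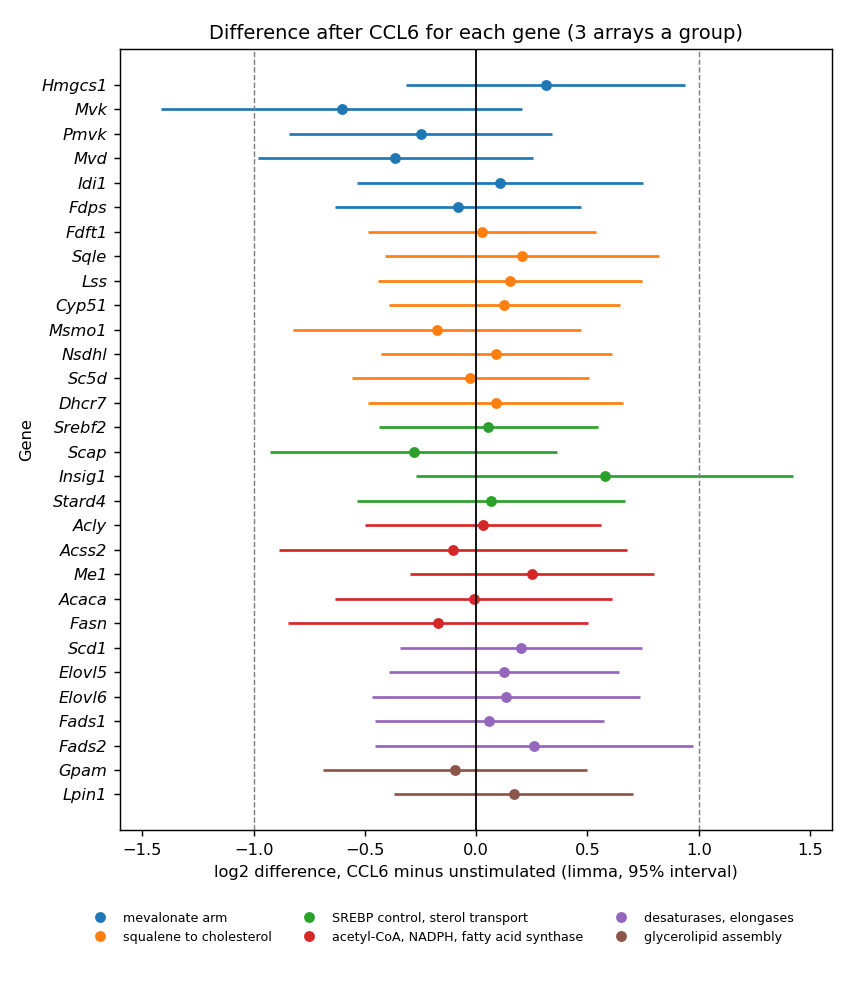
Difference between CCL6 and unstimulated ID8 cells on the log2 scale (x axis) for each of the 30 genes (y axis, colored by role). Points are limma estimates from 3 arrays per group, bars are 95% intervals and dashed lines mark a 2-fold change. Every interval includes 0, and only those of Mvk and Insig1 cross a dashed line.

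The genes also varied less over the arrays than the array as a whole. The distance from the lowest to the highest of the 6 arrays had a median of 0.64 in the 30 genes, 0.69 in the sterol genes and 0.61 in the fatty acid genes. All probe sets above background had a median of 0.99. They were not matched to the 30 genes for signal level, and its part was not tested. The lowest group mean of the 30 genes was 10.85 (Acaca, CCL6). Insig1 had the widest range at 1.66 (3.16-fold) and Srebf2 the narrowest at 0.16.

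**Figure D3:**
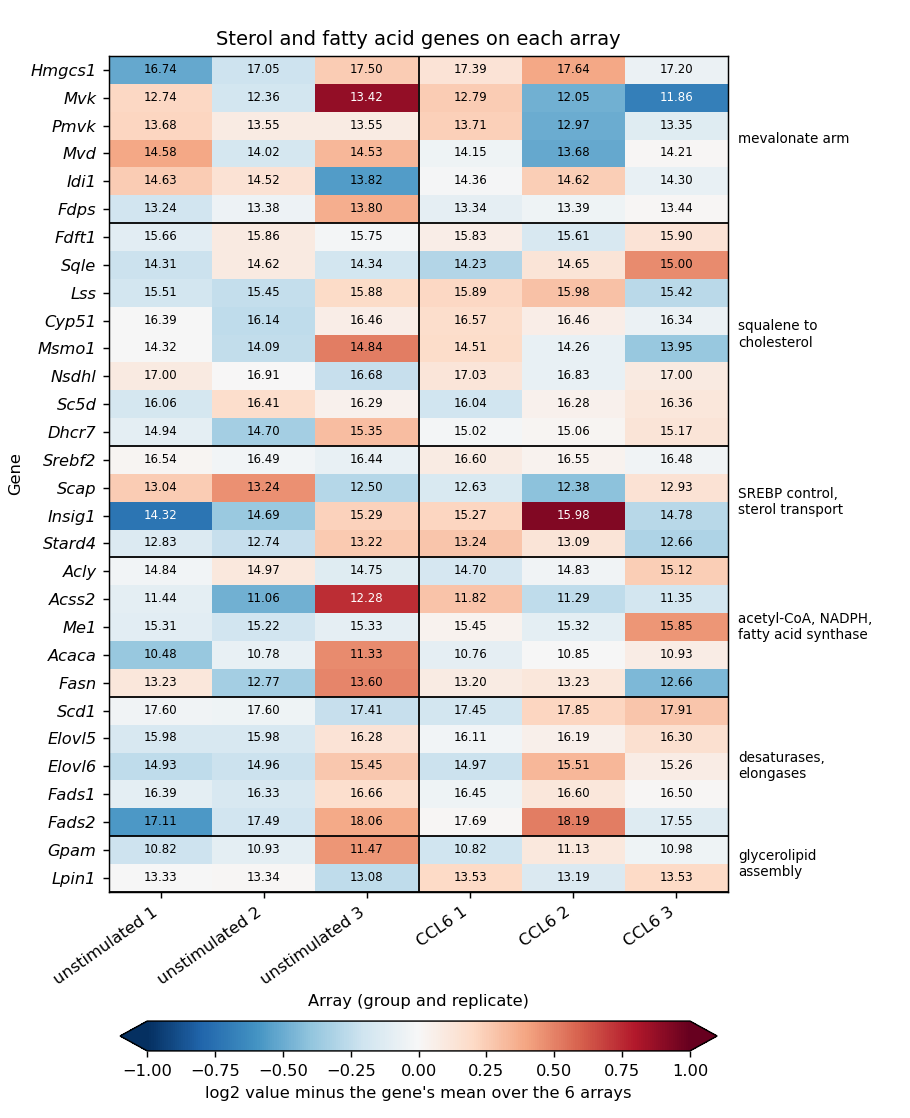
Value of each of the 30 genes (rows, grouped by role) on each of the 6 arrays (columns, by group and replicate). Printed numbers are log2 values, and color gives the value minus the gene's own mean, from blue (lower) to red (higher). The strongest colors are in Mvk, Insig1 and Acss2, and none of the 30 rows separates the 3 CCL6 arrays from the 3 unstimulated ones.

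In the mevalonate arm, 2 of 6 estimates were above zero and 4 below, with a median difference of -0.17, and 0 genes passed either limma threshold. Mvk, the kinase that phosphorylates mevalonate, had the lowest estimate of the 30. It stood at 12.74, 12.36 and 13.42 on unstimulated replicates 1, 2 and 3 and at 12.79, 12.05 and 11.86 on CCL6 replicates 1, 2 and 3. CCL6 replicates 2 and 3 were below every unstimulated array, while CCL6 replicate 1 lay above unstimulated replicates 1 and 2. The difference was -0.61 (SE 0.36, 95% interval -1.42 to 0.21, limma adjusted p = 0.999). It moved to -0.88 without CCL6 replicate 1 (limma unadjusted p = 0.0419, adjusted p = 0.995) and to -0.32 without unstimulated replicate 3. With a term for the 2 sides of the first principal component it was -0.84 (limma unadjusted p = 0.0169, adjusted p = 0.795). In these settings 3.04% (without CCL6 replicate 1) and 6.15% (with the term) of all probe sets passed an unadjusted p of 0.05.

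Mvd, the decarboxylase that makes isopentenyl diphosphate, had 14.58, 14.02 and 14.53 on the unstimulated arrays and 14.15, 13.68 and 14.21 on the CCL6 arrays. Unstimulated replicates 1 and 3 were the 2 highest arrays, and unstimulated replicate 2 fell below 2 of the CCL6 arrays. This gave a limma difference of -0.36 (SE 0.27, adjusted p = 0.999). Hmgcs1 measured 16.74, 17.05 and 17.50 against 17.39, 17.64 and 17.20, a difference of 0.31 (SE 0.28). Its lowest 2 arrays were unstimulated, but unstimulated replicate 3 was second only to CCL6 replicate 2.

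The other genes of this arm had smaller differences. Pmvk, the second kinase of the arm, differed by -0.25 (SE 0.26), with 5 arrays between 13.35 and 13.71 and CCL6 replicate 2 at 12.97. Idi1, the isomerase of isopentenyl diphosphate, differed by 0.11 and Fdps, which makes farnesyl diphosphate, by -0.08. Idi1 was lowest and Fdps highest on the same array, unstimulated replicate 3.

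From squalene to cholesterol, 6 estimates of 8 lay above zero and 2 below, with a median of 0.09 and 0 genes past either limma threshold. Sqle, the squalene epoxidase and a controlled step of the pathway, had 14.31, 14.62 and 14.34 on the unstimulated arrays and 14.23, 14.65 and 15.00 on the CCL6 arrays. CCL6 replicate 3 was the highest array and CCL6 replicate 1 the lowest, so the unstimulated values lay inside the CCL6 range. The limma difference was 0.21 (SE 0.27, adjusted p = 0.999).

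Msmo1, the C4-methylsterol oxidase, was low where Sqle was high, with 14.32, 14.09 and 14.84 against 14.51, 14.26 and 13.95. CCL6 replicate 3 was its lowest array and unstimulated replicate 3 its highest. Its difference of -0.18 (SE 0.28, limma adjusted p = 0.999) became 0.04 without unstimulated replicate 3.

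The remaining 6 genes of the arm differed by 0.15 or less in size. These were Lss, which closes the sterol rings (0.15), the lanosterol demethylase Cyp51 (0.13), the C4-decarboxylase Nsdhl (0.09), Dhcr7, which makes cholesterol from its direct precursor (0.09), the squalene synthase Fdft1 (0.03) and the sterol desaturase Sc5d (-0.03). Their ranges over the 6 arrays went from 0.29 in Fdft1 to 0.65 in Dhcr7.

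Among the SREBP control and sterol transport genes, Insig1 had the largest estimate of all 30 genes. INSIG1 retains SCAP in the endoplasmic reticulum, and Insig1 is itself an SREBP target. Its values were 14.32, 14.69 and 15.29 on the unstimulated arrays and 15.27, 15.98 and 14.78 after CCL6. CCL6 replicate 2 was highest and unstimulated replicates 1 and 2 lowest, with unstimulated replicate 3 above 2 of the CCL6 arrays. The difference was 0.58, or 1.49-fold (SE 0.37, 95% interval -0.27 to 1.43, limma adjusted p = 0.999). It ranged from 0.26 without CCL6 replicate 2 to 0.86 without CCL6 replicate 3. Without both arrays numbered 3 it was 1.12 (limma unadjusted p = 0.0136, adjusted p = 0.291), where 11.2% of all probe sets passed an unadjusted p of 0.05. That setting compared unstimulated replicates 1 and 2 with CCL6 replicates 1 and 2, which lie on opposite sides of the first principal component. Treatment and that division of the arrays cannot be told apart in it. The list of proliferation genes was highest on the same array as Insig1, CCL6 replicate 2, and its part in these values was not tested.

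Scap had 13.04, 13.24 and 12.50 on the unstimulated arrays and 12.63, 12.38 and 12.93 on the CCL6 arrays. Its order was close to the reverse of Insig1, with the lowest value on CCL6 replicate 2 and the highest on unstimulated replicate 2. With limma the difference was -0.28 (SE 0.28, adjusted p = 0.999). Srebf2, which encodes SREBP-2, was the steadiest gene of the list, at 16.54, 16.49 and 16.44 against 16.60, 16.55 and 16.48. It differed by 0.05 (SE 0.22, 95% interval -0.44 to 0.55). This standard error, shared in part between genes by limma, is larger than the SD within the groups of 0.0480 and 0.0617. Stard4, a carrier of cholesterol between membranes, differed by 0.07.

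**Figure D4:**
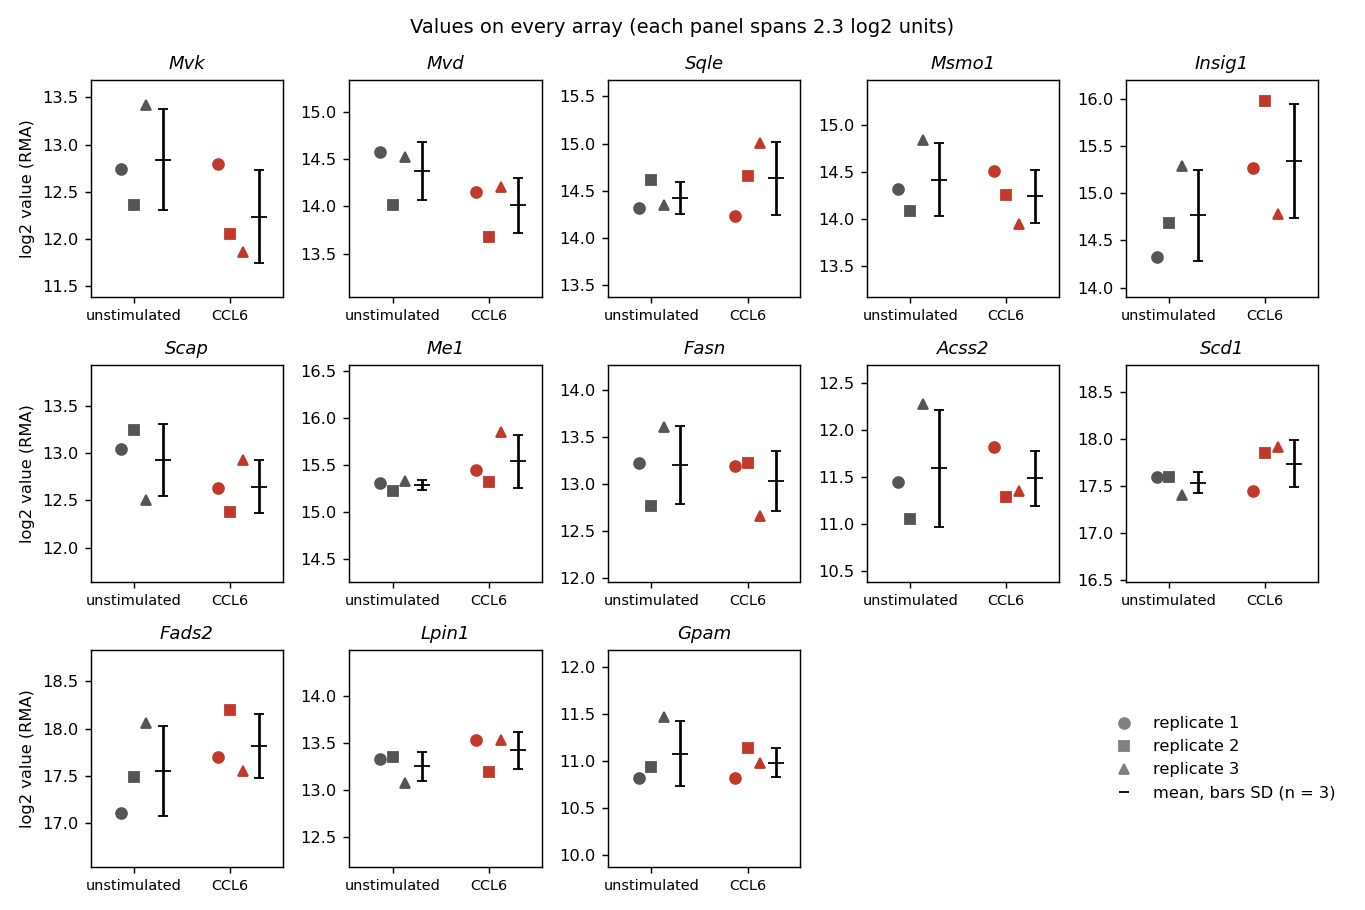
Log2 values (y axis) of the 13 genes given in full, in unstimulated (grey) and CCL6 treated (red) ID8 cells. Marker shape is the replicate number, and horizontal marks with bars are the mean ± SD of 3 arrays. Panels have the same height in log2 units, so that the spread of Mvk, Insig1 and Acss2 can be compared with that of Scd1 and Lpin1.

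The genes that supply acetyl-CoA and NADPH and build palmitate had 2 estimates above zero and 3 below, with a median difference of -0.01 and 0 past either limma threshold. Me1, the cytosolic malic enzyme that yields NADPH, had 15.31, 15.22 and 15.33 on the unstimulated arrays and 15.45, 15.32 and 15.85 on the CCL6 arrays. Only unstimulated replicate 3 and CCL6 replicate 2 were out of order, by a narrow margin, and CCL6 replicate 3 stood above the rest. The limma difference was 0.25 (SE 0.24, adjusted p = 0.999), and it dropped to 0.10 without CCL6 replicate 3. When each array was centred on its median, the groups of Me1 no longer overlapped, 1 of 30 genes (3.33%) against 8.3% of all probe sets under the same centring.

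Fasn, the fatty acid synthase, had 13.23, 12.77 and 13.60 against 13.20, 13.23 and 12.66. The highest array was unstimulated replicate 3 and the lowest CCL6 replicate 3, with the other CCL6 arrays inside the unstimulated range. The limma difference of -0.17 (SE 0.30, adjusted p = 0.999) was 0.03 without unstimulated replicate 3 and 0.01 without CCL6 replicate 3.

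Acss2, which makes acetyl-CoA from acetate, had the widest range of the fatty acid genes, 1.22. Its values were 11.44, 11.06 and 12.28 on the unstimulated arrays and 11.82, 11.29 and 11.35 on the CCL6 arrays. Both extremes were unstimulated arrays, and the 3 CCL6 values fell between them. The limma difference was -0.10 (SE 0.34, adjusted p = 0.999) and became 0.24 without unstimulated replicate 3. Acly, which splits citrate to acetyl-CoA, differed by 0.03 and Acaca, the carboxylase that makes malonyl-CoA, by -0.01. Acaca ranged over 0.85, from unstimulated replicate 1 to unstimulated replicate 3.

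All 5 desaturases and elongases had an estimate above zero, with a median of 0.13, and so had 51.4% of probe sets above background. However, 0 of the 5 passed either limma threshold and the groups overlapped in each gene. Scd1 introduces the first double bond into saturated fatty acids. It had 17.60, 17.60 and 17.41 on the unstimulated arrays and 17.45, 17.85 and 17.91 on the CCL6 arrays. CCL6 replicates 2 and 3 were above all unstimulated arrays and CCL6 replicate 1 was below 2 of them. By limma the groups differed by 0.20 (SE 0.24, adjusted p = 0.999). Whether the Scd1 probe set also reads its close paralogs was not tested.

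Fads2, the delta-6 desaturase of polyunsaturated fatty acids, had 17.11, 17.49 and 18.06 against 17.69, 18.19 and 17.55. Unstimulated replicates 1 and 2 were lowest, but unstimulated replicate 3 exceeded 2 of the CCL6 arrays. The limma difference was 0.26 (SE 0.31, adjusted p = 0.999), and it ranged from 0.04 without unstimulated replicate 1 to 0.51 without unstimulated replicate 3. The elongases Elovl6 and Elovl5 differed by 0.13 and 0.12 and the delta-5 desaturase Fads1 by 0.06. The estimate of Elovl6 was -0.00020 without CCL6 replicate 2, and that of Fads1 was -0.0047 without unstimulated replicate 2.

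Of the glycerolipid genes, Lpin1, a phosphatidate phosphatase, had 13.33, 13.34 and 13.08 on the unstimulated arrays and 13.53, 13.19 and 13.53 on the CCL6 arrays. CCL6 replicates 1 and 3 were above every unstimulated array and CCL6 replicate 2 was below 2 of them. This amounted to a limma difference of 0.17 (SE 0.24, adjusted p = 0.999). Gpam, the mitochondrial enzyme that adds the first acyl chain to glycerol phosphate, had 10.82, 10.93 and 11.47 against 10.82, 11.13 and 10.98. The CCL6 values of Gpam lay within the unstimulated range, with a limma difference of -0.09 (SE 0.26, adjusted p = 0.999).

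Across arrays the pathway did not move as 1 block. Unstimulated replicate 3 was the highest array for 9 of 30 genes and CCL6 replicate 3 for 7, as they were for 21.6% and 18.9% of probe sets above background. Unstimulated replicate 1 was the lowest for 8 genes and for 18.8% of those probe sets. Hmgcs1, Insig1, Elovl6 and Fads2 were all highest on CCL6 replicate 2 and lowest on unstimulated replicate 1, an order of extremes found in 13.3% of the 30 genes and 6.47% of probe sets above background. Mvk, Msmo1 and Fasn shared another, highest on unstimulated replicate 3 and lowest on CCL6 replicate 3 (10% against 7.24%). Hmgcs1 and Mvk, enzymes of the same arm, thus had different highest and lowest arrays.

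The 3 arrays on which proliferation genes were high were also the 3 highest for 6 of 30 genes (20%), compared with 18.1% of probe sets above background. These were Hmgcs1, Lss, Cyp51, Insig1, Stard4 and Fads2. Of the 6, 5 were sterol genes, as were 18 of the 30 genes. The same arrays were the 3 lowest for Scap and Acly, 6.67% of the genes against 14.6% of probe sets above background. The mean deviation of the sterol genes stayed between -0.07 and 0.12 on all 6 arrays and that of the fatty acid genes between -0.15 and 0.20. The mean of the proliferation genes spanned -0.90 to 1.03 on the same arrays. Opposite deviations cancel in such means, and single genes had ranges of up to 1.66 (Insig1). The part of proliferation in the values of the 6 genes was not tested.

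**Figure D5:**
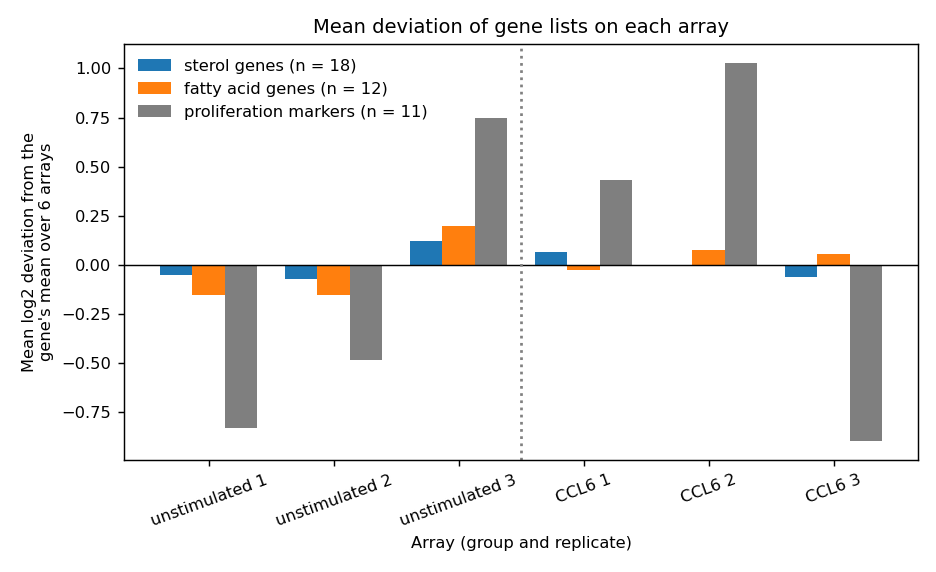
Mean log2 deviation of 18 sterol genes, 12 fatty acid genes and 11 proliferation markers from each gene's mean over the 6 arrays (y axis), for each array (x axis, by group and replicate). Bars start at 0. The means of the sterol and fatty acid genes stay between -0.15 and 0.20. The mean of the proliferation markers reaches -0.90 on CCL6 replicate 3 and 1.03 on CCL6 replicate 2. Opposite deviations of single genes cancel in a mean.

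Neighboring pathways were counted in the same way. Of 18 further genes of sterol and fatty acid synthesis, 15 were measured, 8 with an estimate above and 7 below zero, with a median difference of 0.11 and 0 past either limma threshold. Aacs, which makes acetoacetyl-CoA from acetoacetate for lipid synthesis, had 11.29, 11.47 and 12.30 on the unstimulated arrays and 12.14, 13.05 and 11.18 on the CCL6 arrays. CCL6 replicate 2 was highest, as for Insig1, and CCL6 replicate 3 lowest, and the limma difference was 0.43 (SE 0.47, adjusted p = 0.999). Dgat1, which completes triglyceride synthesis, differed by 0.44 (SE 0.36) and Acacb, the acetyl-CoA carboxylase at mitochondria, by 0.38 (SE 0.31). The Acacb estimate rested on CCL6 replicate 3 at 6.11, with the other 5 arrays between 5.03 and 5.14.

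Genes of fatty acid oxidation gave 3 estimates above and 4 below zero in 7 measured genes of 8, with a median of -0.13 and 0 past either limma threshold. Acadl, the long-chain acyl-CoA dehydrogenase, had 12.41, 12.53 and 12.36 on the unstimulated arrays and 11.77, 12.11 and 12.31 on the CCL6 arrays. All 3 CCL6 arrays were below all unstimulated ones, an order seen in 4.41% of probe sets, and the limma difference was -0.37 (SE 0.24, unadjusted p = 0.159, adjusted p = 0.999). Of 6 genes of liver X receptors and cholesterol efflux 5 were measured, 2 exceeded background in 1 or both groups and 0 passed either limma threshold. Mylip, not above background, had every CCL6 array above every unstimulated one, an order seen in 3.77% of probe sets. Nr1h3, the liver X receptor alpha, passed the background level through the unstimulated group alone, with a mean of 5.41 there and of 4.78 after CCL6, so no difference is given for it. The phospholipid acyltransferase Lpcat3 differed by 0.03 (SE 0.25).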

How the data were processed

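Total RNA from 6 ID8 cultures, 3 per group, was hybridised to Clariom S mouse arrays. The deposited log2 values came from the authors' RMA processing (background correction, normalization across arrays and 1 summary per probe set), with the version and any filter not given in the sources used here. Base 2 is an assumption that rests on values of 1.93 to 19.2. Since RMA equalises the arrays, a shift common to most genes would be lost. Groups came from the sample titles. The number of arrays limits precision. Gene symbols were those of the platform annotation (19572 with 1 symbol, 2634 unnamed), and all 30 symbols matched RefSeq through their gene identifier.

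Both groups were fitted together in R 4.3.3 (limma 3.58.1, lmFit and eBayes). Two-sided p-values were adjusted by the Benjamini-Hochberg procedure across the 22206 probe sets. The script was tested on simulated data. The genes and lists were chosen with earlier results of these data known. Values on every array were given, in each role group, for the 2 genes with the smallest unadjusted p and the gene with the widest range. Hmgcs1, Srebf2 and the promoters of Insig1 and Mvk were added after their values were seen, and from the neighboring lists up to 3 genes above background with the smallest p were taken. A probe set was not above background where both group means were at or below the receptor level. Promoter windows came from the RefSeq table (32851 windows, 34 of them for 26 of the 33 genes). In 19 of the 34 the start of transcription was the gene's annotated 5′ end. Alternatives were a repeated quantile normalization, median centring, array weights, an intensity trend with robust variances, probe sets above background, the replicate number as a block, a term for the sign of the first principal component, leaving out each array, leaving out both arrays numbered 3, and the Student's test of the methods. Array sets from the principal component were defined from the data and are not groups of the study. Without both arrays numbered 3, the treatment groups coincided with these array sets and cannot be told apart from them.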

Additional observations from a re-analysis of the deposited data

How the results depend on the processing

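No gene of the 30 passed an adjusted p of 0.05 in limma under any of these alternatives, with 0.291 as the lowest. The count of 0 at an unadjusted limma p under 0.05 became 1 with the term for the array sets (Mvk), 1 without both arrays numbered 3 (Insig1) and 0 to 1 when single arrays were left out (Mvk, without CCL6 replicate 1). This 1 of 30 is 3.33%, and 6.15%, 11.2% and 3.04% of all probe sets passed in these 3 settings. Without both arrays numbered 3, treatment coincided with the array sets, so no value of that setting can be told apart from that division. Groups without overlap, 0 of 30, became 1 after median centring (Me1, 3.33% against 8.3% of all probe sets), 14 without both arrays numbered 3 (46.7% against 42.3% of all probe sets) and 0 to 9 when single arrays were left out. The 9 genes came without unstimulated replicate 3 (30% against 20.2%), where fewer arrays make separation easier.

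Over the whole array, 284 probe sets were higher and 401 lower at an unadjusted limma p under 0.05 (3.08%). Among the 12547 probe sets above background the counts were 163 and 181 (2.74%). Over all probe sets they were 601 and 764 with the array-set term, and 1398 and 1093 without both arrays numbered 3. Without single arrays they were 171 to 499 and 235 to 578. The Student's test called 1 probe set after adjustment, outside these genes. The cause was not tested.

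Median differences ran from 0.03 to 0.04 (sterol) and 0.03 to 0.19 (fatty acid) without single arrays. Without both arrays numbered 3 they were 0.02 and 0.17, with the array-set term 0.01 and 0.06, and with array weights 0.02 and 0.11, against 0.06 and 0.09 in the reported comparison.

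Signs of small differences were less stable. In 158 of 180 cases leaving out a single array kept the sign, and 15 genes kept it throughout. The other 15 ranged across zero, namely Idi1 (-0.15 to 0.26), Fdps (-0.20 to 0.081), Fdft1 (-0.035 to 0.11), Msmo1 (-0.34 to 0.035), Nsdhl (-0.0022 to 0.16), Sc5d (-0.12 to 0.065), Dhcr7 (-0.061 to 0.26), Stard4 (-0.056 to 0.24), Acly (-0.087 to 0.12), Acss2 (-0.37 to 0.24), Acaca (-0.20 to 0.22), Fasn (-0.38 to 0.031), Elovl6 (-0.00020 to 0.30), Fads1 (-0.0047 to 0.16) and Gpam (-0.22 to 0.10). The sign also turned without both arrays numbered 3 in Idi1 (-0.083), Fdps (0.055), Fdft1 (-0.039), Sqle (-0.020), Msmo1 (0.18), Nsdhl (-0.025), Acly (-0.14), Acss2 (0.31), Acaca (0.18), Fasn (0.21) and Gpam (0.10), with array weights in Fdft1 (-0.012), Acly (-0.015), Acss2 (0.072), Acaca (0.084) and Gpam (0.015), with the array-set term in Stard4 (-0.091) and after median centring in Acaca (0.010). Of 270 values under the alternatives other than leaving out a single array, 252 kept their sign. The intensity trend, the restriction to probe sets above background, the replicate block and the Student's test leave every difference unchanged. Values under these settings are among the 252 and could not change sign.

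Same-numbered arrays correlated at -0.0832, -0.232 and -0.661 in their deviations from the group means, so the numbers were not taken to pair cultures. A replicate block left 0 genes called, and 200 higher and 274 lower probe sets over the whole array at an unadjusted limma p under 0.05.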
